A study of Homo sapiens with 14 samples.

Results

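The human potassium channel genes were taken as all protein-coding genes of chromosomes 1 to 22 and X in the GENCODE annotation of hg38 whose symbol begins KCN. There were 96 of them among 19970 genes. Potassium channels let potassium ions cross the membrane and so set the resting potential and end action potentials in excitable cells. The genes encode pore subunits opened by voltage, by intracellular calcium or sodium, or at rest, and auxiliary subunits that change how the pores open or where they go. Many are expressed in neurons, muscle or secretory epithelia, and only a few of them in any one cell type.

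Peaks were measured by CUT&RUN, in which an antibody directs a nuclease to a protein or histone mark so that the DNA around it is released and sequenced. All 14 libraries were made from the Ewing sarcoma cell line TC-32, which carries the EWSR1::FLI1 fusion and is recorded as WT and untreated. FLI1 was profiled in 4 libraries, replicates 1 and 2 of set A (A1 and A2) and of set B (B1 and B2). H3K27ac, a mark of active promoters and enhancers, was profiled in A1 and A2. H3K9me3, a mark of heterochromatin, and H3K27me3, the Polycomb mark of silenced genes, were each profiled in B1 and B2. The other 4 libraries were IgG controls. The labels do not say what the sets are or whether replicates were separate cultures, so the spread between lists may be technical. With 1 cell line and no treatment, the series holds no contrast between conditions, and every count below is a description of these lists, without a test.

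The lists held 29339 to 40590 FLI1 regions, 10219 and 17366 H3K27ac regions, 36687 and 21770 H3K9me3 regions, and 21461 and 16667 H3K27me3 regions. No read totals were used, so the depth is unknown, and a missing peak means only that none was called. A FLI1 peak does not by itself tell the fusion from native FLI1. FLI1 lay in all 4 lists at each of 6 loci known as fusion targets in Ewing sarcoma (NR0B1, NKX2-2, CCND1, STEAP1, LIPI and CAV1). Presence was scored within 1 kb of the gene start and in a wider window, from 10 kb before the gene to 10 kb after it.

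EWSR1::FLI1 is known to bind runs of GGAA, the core of ETS sites, as well as single sites. The runs below are the main ones next to which FLI1 was called at channel genes. Each is printed in hg38, 5′ to 3′, on the strand that reads GGAA, with 20 flanking bases either side and the GGAA units of these runs in capitals.
KCNE3, before the start, chr11:74468649-74468748, minus strand: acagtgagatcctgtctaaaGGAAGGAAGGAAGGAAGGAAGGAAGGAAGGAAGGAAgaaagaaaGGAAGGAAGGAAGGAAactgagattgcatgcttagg
KCNE4, before the start, chr2:223042042-223042101, minus strand: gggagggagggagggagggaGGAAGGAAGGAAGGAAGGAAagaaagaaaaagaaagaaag
KCNE4, past the gene end, chr2:223199803-223199890, plus strand: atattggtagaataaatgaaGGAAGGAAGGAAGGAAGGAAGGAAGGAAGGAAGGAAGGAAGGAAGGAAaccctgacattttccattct
KCNN1, intron, chr19:17966006-17966101, minus strand: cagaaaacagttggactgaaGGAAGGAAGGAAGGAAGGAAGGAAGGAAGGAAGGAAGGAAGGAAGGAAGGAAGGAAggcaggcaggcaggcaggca
KCNA2, intron, chr1:110611000-110611091, plus strand: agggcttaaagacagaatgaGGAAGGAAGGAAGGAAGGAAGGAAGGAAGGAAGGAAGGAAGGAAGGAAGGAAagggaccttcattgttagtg
KCNS3, intron, chr2:18243040-18243135, minus strand: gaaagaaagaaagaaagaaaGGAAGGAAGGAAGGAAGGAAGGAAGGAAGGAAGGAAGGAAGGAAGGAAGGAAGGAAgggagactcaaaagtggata
KCNH7, intron, chr2:162748876-162749007, minus strand: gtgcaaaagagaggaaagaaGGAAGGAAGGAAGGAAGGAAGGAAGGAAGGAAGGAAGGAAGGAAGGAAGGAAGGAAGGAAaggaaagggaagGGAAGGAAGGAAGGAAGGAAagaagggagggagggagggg
KCNQ5, intron, chr6:73050238-73050329, plus strand: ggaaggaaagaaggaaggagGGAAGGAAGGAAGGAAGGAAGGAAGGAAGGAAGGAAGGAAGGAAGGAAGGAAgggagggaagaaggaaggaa

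A FLI1 summit was counted at a repeat when it lay within 250 bp of a run of at least 4 units. By that rule 4 of 96 channel genes (4.17%) had FLI1 at a repeat in all 4 lists, namely KCNE3, KCNE4, KCNN1 and KCNA2, against 1.69% of all genes. In any list it was 7 genes (7.29%, against 4.91% of all genes), KCNS3, KCNH7 and KCNQ5 being the others, with 3 lists each. The median channel gene was longer, at 42.1 kb against 27.5 kb, so its window gives more room for a repeat. Summits were seldom on the run itself, and with 100 bp in place of 250 bp no channel gene was counted in all 4 lists, nor were more than 0.0351% of all genes.

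KCNE3 and KCNE4 encode single-pass beta subunits that join voltage-gated pores and change their gating, KCNE4 mostly as an inhibitor. In the merged lists, 1 region covered the KCNE3 start. It joined 1 peak of A1, 2 of A2, 5 of B1 and 5 of B2, and every list had a peak within 1 kb of the start. The strongest summit was at -1.17 kb, beside runs of 9 and 4 units. The highest fold over IgG was 98.7 in A1, 102 in A2, 64.2 in B1 and 52.5 in B2. All 4 values were in the top percentile of their list, and the set A values were above those of set B. Neither H3K27ac list nor any list of the repressive marks had a region there. A second KCNE3 region, at 18.1 kb from the start and past the gene end, had folds of 8.21, 7.93, 12.3 and 13.5 in the same order of lists.

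KCNE4 had the most FLI1 regions of the 96 genes, 18, 22, 27 and 26 over its window of 166 kb in A1, A2, B1 and B2. In the merged lists the region before the start ran for chr2:223037707-223052912 and reached the start itself. Its strongest summit lay at -9.88 kb, next to runs of 5 and 8 units that are just outside the 10 kb flank. The run of 5 units, printed above, had a summit within 250 bp in all 4 lists. The run of 8 units, not printed, had 1 in B1 and B2 only, at 65 and 96 bp. The folds of the region were 122, 120, 62.2 and 19.6. The strongest peak that touched the 1 kb window around the start was this broad one in A1, with a fold of 122, while A2, B1 and B2 had separate, lower peaks with folds of 8.45, 14.9 and 7.95. FLI1 thus came within 1 kb of the KCNE4 start in every list, and the highest values had their summits kilobases before it.

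KCNE4 had a second region at a repeat in all 4 lists, at a run of 12 units, 148 kb from the start and beyond the annotated gene end. There the folds were 112 in A1, 143 in A2, 18.6 in B1 and 33.0 in B2, with percentiles of 99.7, 99.8, 89.1 and 98.1. An intronic region at 65.9 kb, with no run of 4 units, had 32.3, 32, 38.2 and 34.8, with both set B values above those of set A, though by little. H3K27ac regions overlapped the region before the start, 5 in A1 and 6 in A2, with folds up to 6.21 and 7.76, and 1 H3K9me3 region in each list overlapped it as well. The H3K27ac peak within 1 kb of the start was in A2 only, with a fold of 3.77. The region beyond the gene end overlapped 1 H3K27ac region in each list and also 3 and 1 H3K9me3 regions. The runs of 5, 8 and 12 units themselves lay under no H3K27ac or H3K9me3 region in any list. H3K9me3 covered 12.5% and 7.69% of the whole KCNE4 window. No H3K27me3 was called anywhere over it.

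KCNN1 (chr19:17951293-18000085, plus strand) encodes SK1, a small-conductance channel opened by calcium through calmodulin. Its FLI1 region lay in an intron at 14.6 kb, on a run of 14 units, with folds of 7.59 in A1, 13.6 in A2, 10.2 in B1 and 8.64 in B2. The values of both sets overlapped and were far below those at KCNE3. The strongest summit was at -1211 bp from an annotated start of another protein-coding transcript of KCNN1, and the region reached that start. A weaker region at -3.22 kb from the gene start had 4.54, 5.54, 5.70 and 4.19. No region of any histone mark list was called over the KCNN1 window.

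KCNA2 (chr1:110519837-110631474, minus strand) encodes Kv1.2, a delayed rectifier of axons. FLI1 lay at a run of 13 units in an intron, 20.7 kb from the gene start and -2755 bp from another annotated protein-coding transcript start. The folds were 37.1 in A1, 21.2 in A2, 23.5 in B1 and 14.3 in B2. The sets overlapped. A nearby region at 24.9 kb, which covered another annotated transcript start of KCNA2, had 7.45, 8.63, 17.5 and 10.0. That second region overlapped H3K27me3 in both lists, so FLI1 and the Polycomb mark were called over the same DNA there. The repeat region overlapped H3K27me3 in B1, but the run itself lay under it in neither list. With any protein-coding transcript start taken, KCNA2 had FLI1 in all 4 lists and H3K27me3 in both within 1 kb.

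At 3 further genes a summit was within 250 bp of the run in 3 of the 4 lists. KCNS3 encodes a silent subunit that modifies Kv2 pores. It had FLI1 at a run of 14 units 365 kb into its long annotated gene. The region was 361380 bp from the nearest protein-coding transcript start of KCNS3. Its folds were 62.0, 79.9, 42.7 and 30, and the B1 summit lay just beyond 250 bp. KCNH7, an ERG-type channel, had 16.8, 18.4, 15.8 and 12.6 at runs of 15 and 5 units in an intron, with the A2 summit just beyond 250 bp. KCNQ5, which carries M-type current, had folds of 6.70 in A1 and 11.5 in A2 on one side of its run of 13 units and 5.31 in B1 on the other, and no peak there in B2. The KCNS3 region overlapped 4 H3K27ac regions in A2, which did not cover the run itself, and none in A1. The KCNH7 region overlapped none in either list.

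Long runs were not always bound. The channel gene windows held 82 runs of at least 4 units, of which 5 (6.1%) had a summit in all 4 lists and 10 (12.2%) in any, against 4.92% and 19.5% of runs in the windows of all genes. Of 13 runs with 10 or more units, 3 (23.1%) were bound in all 4 lists and 7 (53.8%) in any, against 15.6% and 46.6%. These 2 examples of 17 and 15 units, longer than or as long as any bound run above, had no FLI1 region over them in any list and are printed in the same way.
KCNIP4, intron, chr4:21528783-21528890, plus strand: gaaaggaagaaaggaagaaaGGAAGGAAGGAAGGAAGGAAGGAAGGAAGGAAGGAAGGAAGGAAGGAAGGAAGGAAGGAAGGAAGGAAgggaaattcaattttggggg
KCNT2, intron, chr1:196411043-196411142, minus strand: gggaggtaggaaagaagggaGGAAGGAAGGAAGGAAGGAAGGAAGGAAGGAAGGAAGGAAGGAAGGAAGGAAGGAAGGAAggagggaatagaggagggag

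A run of 13 units in KCNIP1 also had no FLI1 region over it. An 11-unit run before KCNH4 lay inside a merged FLI1 region with peaks of all 4 lists, with folds of 5.97, 5.53, 6.15 and 7.72. The peaks of A2, B1 and B2 covered the run and that of A1 did not. No summit came within 250 bp of it. Whether reads map uniquely in these runs was not tested.

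FLI1 at gene starts was less frequent among channel genes than among all genes. Within 1 kb of the start, 6 of 96 (6.25%) had FLI1 in all 4 lists, against 33.8% of all genes. Single lists counted 13 channel genes in A1 (against 40.7% of all genes), 10 in A2 (40.4%), 17 in B1 (49.7%) and 13 in B2 (46.3%). That is a mean of 13.8% ± 2.99 (SD, n = 4), against 44.3% ± 4.50 of all genes. The highest list for channel genes was below the lowest for all genes. In any list it was 21 genes (21.9%, against 54.1%).

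**Figure D1:**
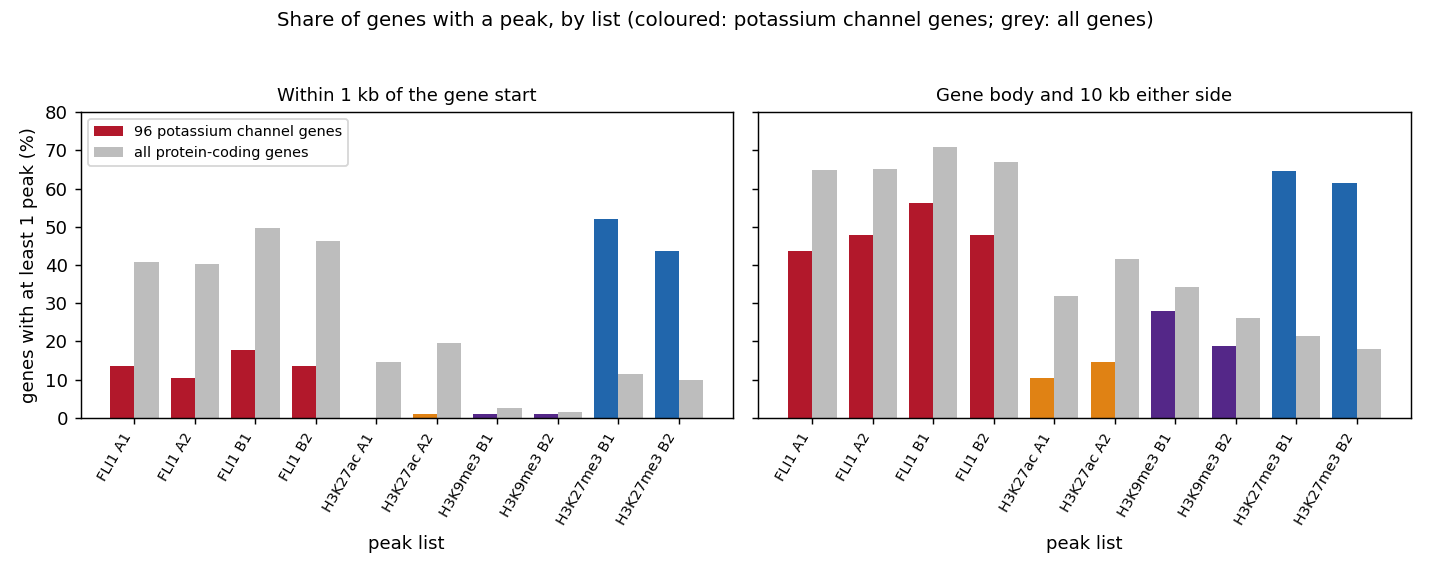
Percent of genes with at least 1 peak in each list, for the 96 potassium channel genes (coloured) and all protein-coding genes (grey), within 1 kb of the start (left) and over the wider window (right). FLI1 and H3K27ac bars are lower for the channel genes in every list, and H3K27me3 bars are higher in both lists and both windows.

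By role, these included 3 of 16 auxiliary genes (KCNE3, KCNE4 and KCNIP1), 1 of 10 modifier genes (KCNS3) and 1 of 8 ion-activated genes (KCNN3). None of the 5 KCNQ, 8 KCNH, 16 inward rectifier and 15 2-pore genes had FLI1 at the start in all 4 lists. KCNIP1, which encodes a calcium-binding partner of Kv4 channels, had folds of 15.3 in A1, 14.7 in A2, 5.68 in B1 and 6.73 in B2. The percentiles of these folds were 86.2, 86.5, 17.1 and 33.8, so the sets did not overlap there and set A ranked the higher.

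KCNS3 differed in this respect, with 8.21 in A1, 6.46 in A2, 10.5 in B1 and 13.6 in B2. KCNN3, which encodes the calcium-activated channel SK3, had 6.26, 5.02, 4.75 and 4.95. These are the strongest peaks within 1 kb of each start. The 61 bases around a summit at KCNIP1 are printed 5′ to 3′ on the gene's strand, to set single cores beside the runs above, with GGAA or TTCC in capitals.
KCNIP1, summit in A2, chr5:170353085-170353145, plus strand: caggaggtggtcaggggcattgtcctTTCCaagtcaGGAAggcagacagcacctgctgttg

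At KCNIP1 the summits of A1 and B2 coincided, and those of A2 and B1 lay elsewhere, so this window is not a site. The 61 bases around the A1, B1 and B2 summits of the same region held 0 copies of GGAA or TTCC. Promoters of 300 bases from RefSeq (hg38) could be matched for 72 of 96 channel genes by symbol. Some of these lie far from the GENCODE start at which FLI1 was scored, such as 306144 bp at KCNN2 and 263504 bp at KCNMB2. The extended ETS motif CCGGAAGT, searched on both strands, was in 0 of the 72 and in 6.33% of 15316 promoters. It was in 14.4% of the promoters of genes with FLI1 at the start in all 4 lists, and in 0.216% of those with H3K27me3 at the start in both lists. The motif GGAAGGAA, which holds the same GGAA core, was in 6 of the 72 (8.33%), KCNMB2 among them, and in 3.56% of all promoters. Its share was no higher, at 3.4%, in the promoters of genes with FLI1 at the start in all 4 lists.

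**Figure D2:**
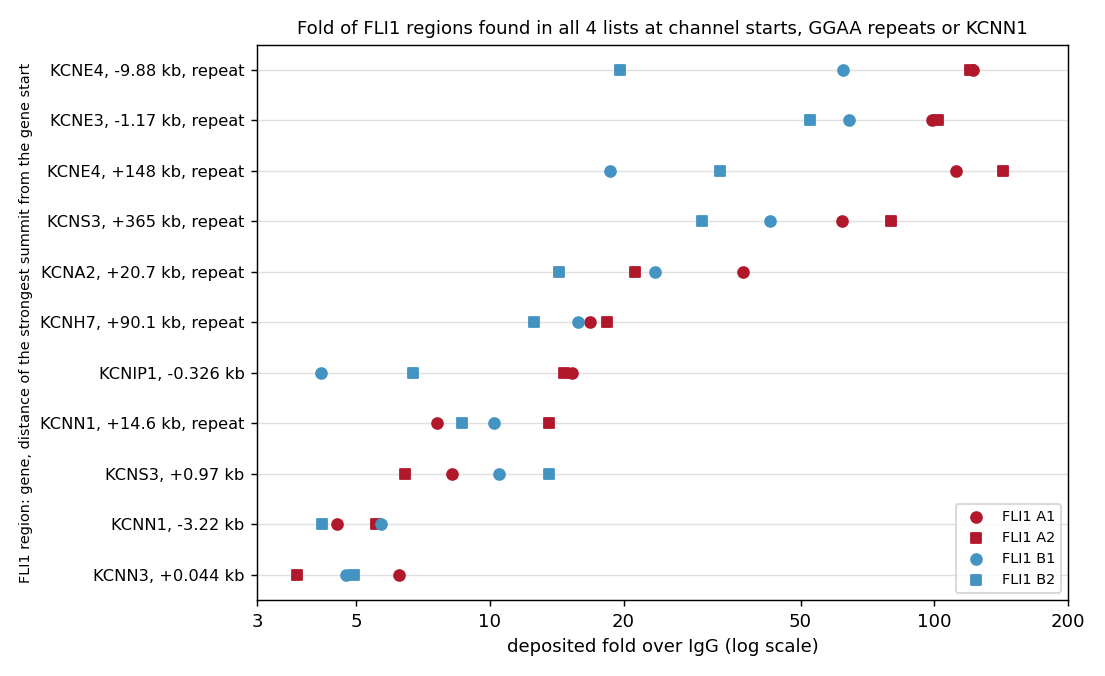
Fold over IgG (log scale) in the 4 FLI1 lists for the regions found in all 4 lists at the starts of the channel genes named here, at GGAA repeats or over KCNN1, labelled by gene and by distance of the strongest summit from the start, with the strongest peak of each region shown. The repeat regions of KCNE4, KCNE3 and KCNS3 reach 62.0 to 143 in set A and 18.6 to 64.2 in set B, while the starts of KCNIP1, KCNN3 and KCNS3 reach at most 15.3. The repeat regions of KCNA2, KCNH7 and KCNN1 are lower, at most 37.1, 18.4 and 13.6, so that of KCNN1 lies within the range of the starts.

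Agreement between the sets was incomplete. KCNAB3, KCNH1 and KCNJ3 had FLI1 at the start in both lists of set A and neither of set B (3 genes, with 1.09% of all genes doing so). KCNC4, KCNG1, KCNJ11, KCNJ2 and KCNMB4 had it in both lists of set B and neither of set A (5 genes, against 5.55% of all genes). Examples of the folds are 4.70 and 8.77 at KCNJ3, a G-protein-gated inward rectifier, and 12.1 and 15.0 at KCNJ11, the pore of ATP-sensitive channels.

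Over the wider window, 33 channel genes (34.4%) had FLI1 in all 4 lists, against 56.3% of all genes. In any list it was 65 (67.7%, against 76.5%), and 31 had it in none. In 28 genes (29.2%, against 53.1%) 1 region was shared by the 4 lists. Without regions within 1 kb of another protein-coding gene's start, a setting chosen after seeing the data, 23 genes (24%, against 41.9%) had FLI1 in all 4 lists. The 87.0-, 96.5-, 43.5- and 40.5-fold region in the KCND1 window is at the start of OTUD5, and the 123-, 161-, 43.1- and 25.7-fold region in the KCNH3 window is at those of MCRS1 and PRPF40B. Both were named after their values were seen. FLI1 regions were 7.48 to 9.54 per Mb in the channel windows, against 14.5 to 18.6 per Mb for all genes.

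H3K27ac was nearly missing at channel gene starts. None of the 96 starts had it in both lists, against 11.3% of all genes, and KCNE4 alone had it in 1 list (23% of all genes had it in at least 1). The starts of the calcium channel, sodium channel, pacemaker channel and sodium pump genes compared below also had it in both lists at 0 genes. For channel genes the wider window held more. Over the wider window 7 genes (7.29%, against 28.3%) had it in both lists, namely KCNE4, KCNH6, KCNIP2, KCNJ12, KCNN3, KCNN4 and KCNS3. At KCNH6 and KCNIP2 the FLI1 regions with H3K27ac were at the starts of neighbours, DCAF7 and OGA. Without H3K27ac regions within 1 kb of another gene's start, a setting chosen after seeing the data, KCNIP2 kept H3K27ac in both lists. KCNH6 did not. KCNJ12 has a near-identical copy in KCNJ18, so the assignment of reads between these inward rectifiers is uncertain.

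At KCNN3 an intronic H3K27ac peak 140 kb from the start had a fold of 5.50 in A1, with 5.50 at 139 kb in A2. KCNN4, the intermediate-conductance calcium-activated channel, had H3K27ac at 23.4 kb in A1 and 23.5 kb in A2, past its gene end, with folds of 5.04 and 5.18. These folds were near the medians of all H3K27ac regions, 4.97 and 4.84.

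H3K9me3 was at the start of 1 channel gene in both lists, KCNE5, against 1.39% of all genes. KCNE5 is a small X-linked beta subunit gene, and its regions were 3.04 and 3.2 kb wide with folds of 4.6 and 4.36. FLI1 was also called in all 4 lists at -4.42 kb from it, with folds of 5.87, 5.38, 9.83 and 7.12. Over the wider window H3K9me3 was in both lists at 18 channel genes (18.8%, against 25.3%).

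H3K27me3 was the mark most often found at channel genes. It covered some of the 1 kb either side of the start in both lists at 42 of 96 genes (43.8%, against 9.47% of all genes), with 50 in B1 (against 11.5%) and 42 in B2 (against 9.8%). The 8 genes with it in B1 alone were KCNA2, KCNC2, KCNS3, KCNH7, KCNJ2, KCNJ8, KCNIP1 and KCNMB1, and no gene had it in B2 alone. Over the wider window it was in both lists at 59 genes (61.5%, against 17.6%). With only peaks of −log10 q at least 5, a stricter limit than the authors', the counts were 21 at the start (against 3.81%) and 28 over the wider window (against 6.53%).

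**Figure D3:**
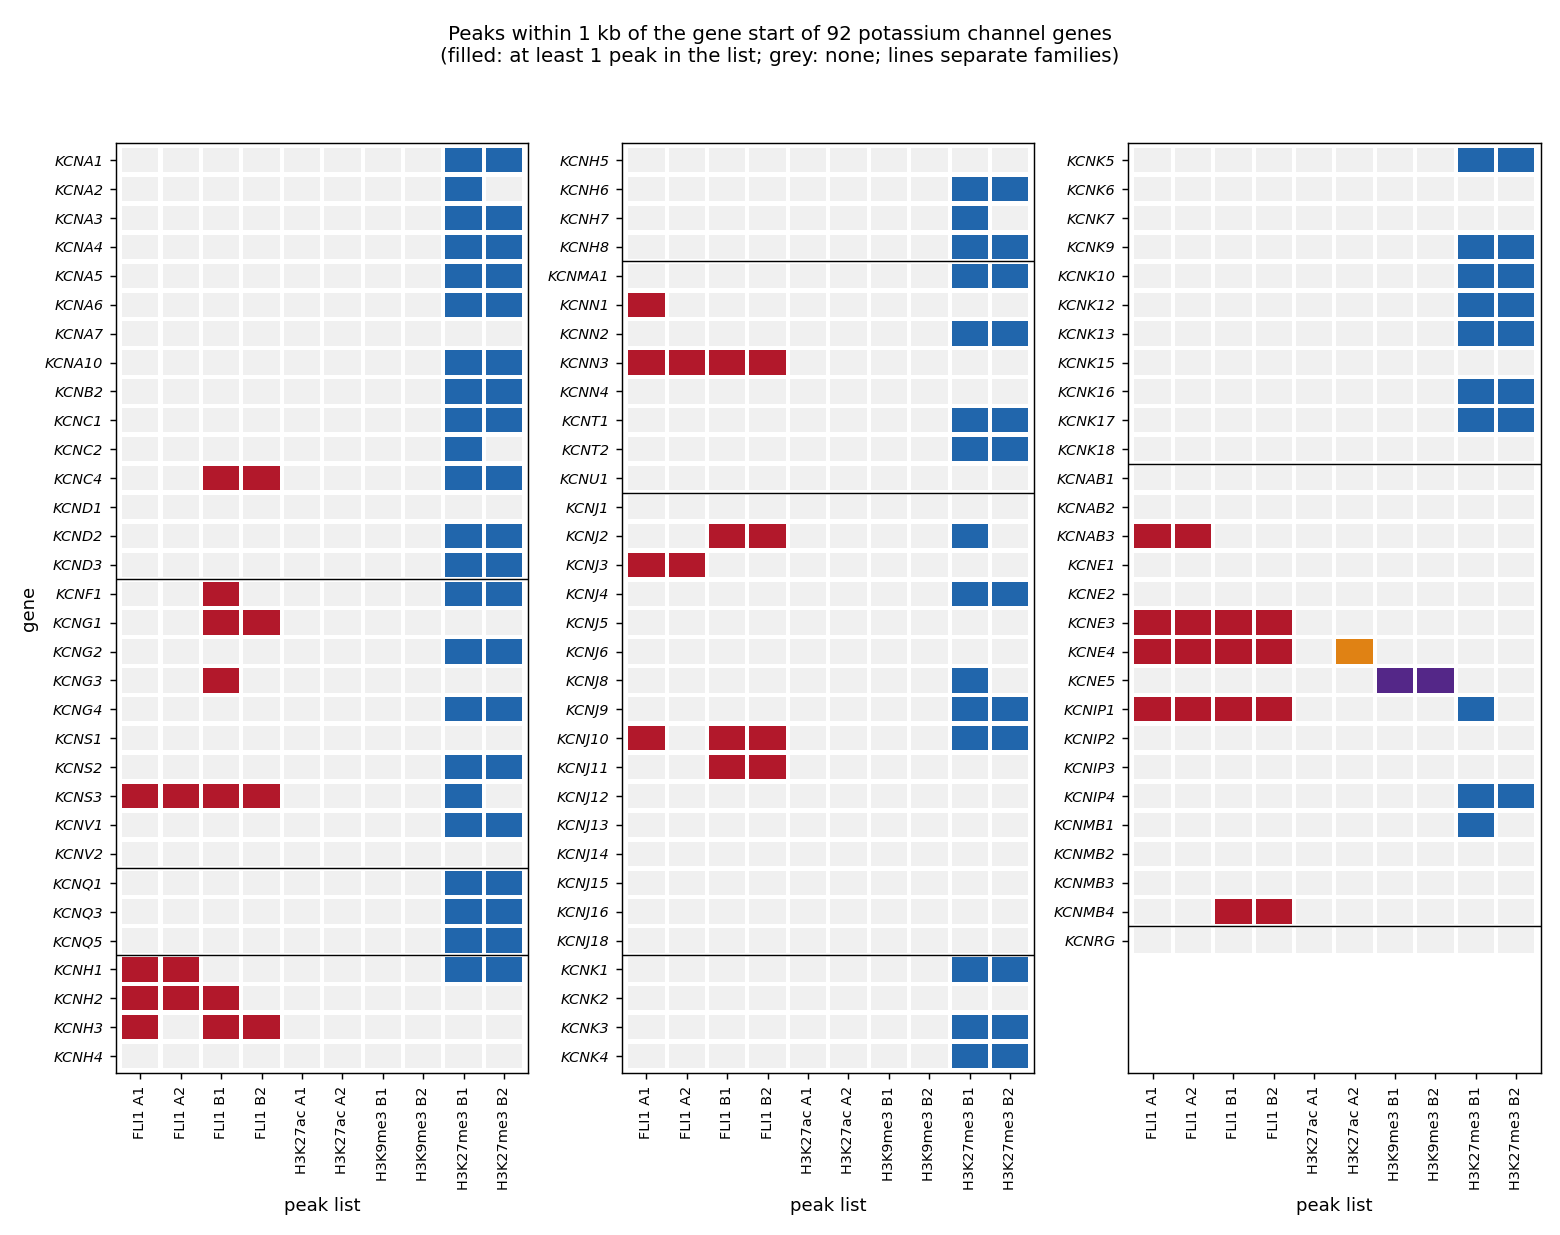
Presence of at least 1 peak within 1 kb of the start (filled cells) for 92 of the genes (rows, with lines between families) in the 10 lists (columns). Blue H3K27me3 cells are dense in the Shaker-type and 2-pore blocks, red FLI1 cells run across all 4 columns at KCNE3, KCNE4, KCNIP1, KCNN3 and KCNS3, and the H3K27ac columns hold 1 cell.

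The marked starts were spread unequally over the families. Among Shaker-type pore genes it was 12 of 17, including KCNA1, KCNA3, KCNA4, KCNA5, KCNA6, KCNA10, KCNB2, KCNC1, KCNC4, KCND2 and KCND3. Among 2-pore genes, whose channels carry background current, it was 10 of 15. Among KCNQ genes it was 4 of 5, and among ion-activated genes 4 of 8 (KCNMA1, KCNN2, KCNT1 and KCNT2).

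Modifier genes had 5 of 10 starts marked and KCNH genes 3 of 8. Inward rectifier genes had 3 of 16 (KCNJ4, KCNJ9 and KCNJ10) and auxiliary genes 1 of 16 (KCNIP4), while KCNRG, a regulator of channel assembly, had none. Other ion transport genes also varied. The mark was at 12 of 26 calcium channel (CACN) starts, 2 of 14 sodium channel (SCN) starts, 3 of 4 pacemaker channel (HCN) starts and 1 of 8 starts of sodium pump subunits (ATP1A and ATP1B). FLI1 in all 4 lists was at 3 of 26 CACN starts (11.5%), 1 of 14 SCN starts (7.14%), 1 of 4 HCN starts and 3 of 8 sodium pump starts. A low share of FLI1 at starts was thus not particular to the KCN genes.

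The Polycomb mark is known to sit at CpG-rich promoters, and marked channel starts were more frequent at higher CpG content. Where observed over expected CpG within 500 bp of the start was 0.8 or more, 21 of 31 channel starts (67.7%) were marked, against 10.8% of all genes in that range. From 0.6 to 0.8 it was 12 of 21 (57.1%, against 10.9%), from 0.4 to 0.6 it was 5 of 17 (29.4%, against 11%), and below 0.4 it was 4 of 27 (14.8%, against 6.03%). Channel starts were marked more often than all starts in each range. In the CpG-richest range FLI1 in all 4 lists was at 1 of 31 channel starts (3.23%, against 49.6%).

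FLI1 and H3K27me3 met at few channel starts, but at a larger share of them than of all starts. With FLI1 in any list and H3K27me3 in both, it was 5 of 96 genes (5.21%, against 1.03% of all genes). KCNC4, KCNJ10, KCNH1 and KCNF1 were among these. The 5 genes were 11.9% of the 42 marked channel starts, beside 10.9% of marked starts of all genes. Of the 46 channel starts without H3K27me3 in either list, 13 (28.3%) had FLI1 in any list, beside 59.6% for all genes. FLI1 in all 4 lists was at 0 of the 42, beside 1.37% of marked starts of all genes, which is close to none at this number of starts. Of the 8 channel starts with H3K27me3 in B1 alone, 2 had FLI1 in all 4 lists, KCNIP1 and KCNS3. That is 25%, beside 3.89% of all starts with H3K27me3 in 1 list.

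The extent of H3K27me3 differed more than its presence. KCNT1 (chr9:135702185-135795508, plus strand), a sodium-activated channel gene, had 93.6 kb under the mark in both lists, 82.6% of its window, with 87.6% in B1 and 82.7% in B2. At its start, 1 region in B1 was 51.0 kb wide, while B2 had regions of 21.6 and 28 kb on its sides. The gene was covered nearly end to end in both lists.

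KCNQ1, the pore of the cardiac slow delayed rectifier, had 72.1 kb of shared H3K27me3, but in a longer window, of which it was 17%. KCND3 (Kv4.3) had 56.0 kb (23.4%), and the 2-pore genes KCNK9, KCNK3 and KCNK17 had 27.1 kb (22%), 20.2 kb (33.2%) and 16.2 kb (45.6%). KCNC1 had 16.6 kb (11.7%), KCNIP1 16.6 kb (4.11%) and KCNA2 14.9 kb (11.3%). The windows of KCNA2 and KCNK17 include the start regions of their neighbours KCNA10 and KCNK16, so those bases are counted for both genes of each pair. KCNIP1 and KCNA2 had the mark at the gene start in B1 only, and KCNIP1 combined it with FLI1 there in all 4 lists. With any protein-coding transcript start taken, both genes had the mark in both lists.

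**Figure D4:**
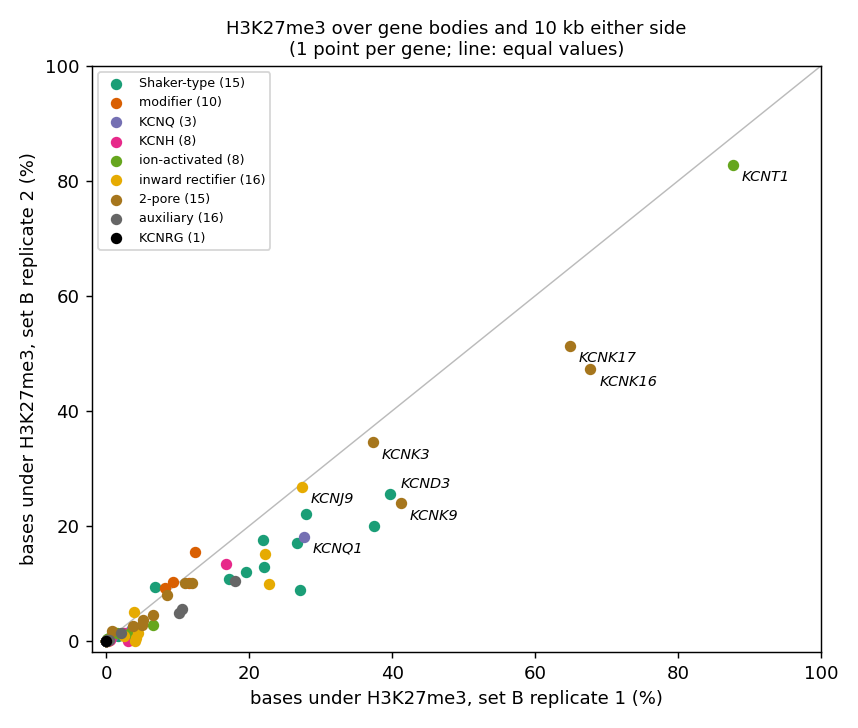
Percent of bases of the wider window under H3K27me3 in B1 (x axis) and B2 (y axis), 1 point for each of 92 channel genes coloured by family, with the line of equal values. KCNT1 stands apart at 87.6% in B1 and 82.7% in B2, KCNK16 and KCNK17 follow, and most genes lie below the line, with less coverage in B2.

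Most marked starts had regions of ordinary size. The median region at a channel start was 3.04 kb wide in B1 and 2.94 kb in B2, beside 3.24 and 2.6 kb at all starts. KCNA5, which encodes the Kv1.5 channel and was named from its study in Ewing sarcoma, had folds of 5.04 and 4.44, with 87.6% and 70.3% of the 1 kb either side of its start covered. No FLI1, H3K27ac or H3K9me3 was called over its window. The highest folds at a channel start, named after their values were seen, were 8.77 in B1 at KCNQ5 and 7.84 in B2 at KCNMA1, the large-conductance calcium-activated channel.

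No H3K27me3 region covered the starts of more than 1 channel gene, although several are neighbours. KCNA1, KCNA6 and KCNA5 on chromosome 12 each had their own region in both lists. H3K27me3 covered 6.49% of the channel windows in B1 and 4.41% in B2, against 2.12% and 1.42% for all genes. At 32 of 96 starts (33.3%, against 32.7%) there was no peak in any of the 10 lists.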

How the data were processed

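Of the 14 CUT&RUN libraries, the 10 antibody libraries have peak lists, which were analysed here. IgG libraries, reads and spike-in counts were not analysed here. The submitters' processing notes name cutadapt 4.4, Bowtie2, Picard 2.17.11 and MACS2 2.1.1 and the build GRCh38 (hg38), without their order. Peak names in the files record that the authors called every library alone, against the IgG of its set and number, after removing duplicates. The deposited fold is a ratio of signal to IgG. The deposited significance values are −log10 p and −log10 q, with a lowest −log10 q of 2.00. The deposited score column was not used for any result, and the deposited summit offset gave FLI1 summits. These values were used to rank or filter within a list, since they depend on the depth of the library, which is unknown. Folds of different lists are printed side by side without a common scale.

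Gene starts and bodies came from GENCODE release 44, with a minimum overlap of 1 base. Runs of GGAA or TTCC were searched in hg38. Genes were named by rule: KCNN1 and KCNA5, every gene with FLI1, H3K27ac or H3K9me3 at the start in all lists of that antibody, every gene with FLI1 at a repeat, the 10 with the most shared H3K27me3, and those whose FLI1 starts differed between sets. Some genes that the rule names are counted but not reported here by name or drawn. Members, lists and rules were chosen with earlier results of these data known. Each count stands beside the same count over all 19970 genes, and no test was made. Alternatives changed windows, thresholds, lists and repeat rules. The counting was tested on simulated data: 200 of 200 planted starts among 19933 genes and 14000 of 14000 intervals came out right. Python 3.11.15, numpy 2.4.6, pandas 2.3.3, scipy 1.17.1 and matplotlib 3.10.9 were used.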

Additional observations from a re-analysis of the deposited data

How the results depend on the processing

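No paired analysis was possible because the results come from no test. Counts of channel genes moved by over 1.5 times as follows, mostly because the setting itself takes in more or fewer regions. At gene starts, a window of 5 kb gave 13 genes with FLI1 in all 4 lists and 1 with H3K27ac in both, and any 1 list gave 21 and 1. With −log10 q of at least 5 the starts with H3K9me3 fell to 0 and those with H3K27me3 to 21. Over gene bodies, leaving off the flank gave 17 genes for FLI1, 4 for H3K27ac and 2 for FLI1 at a repeat, and a flank of 50 kb gave 56 for FLI1, 20 for H3K27ac and 35 for H3K9me3. Any 1 list gave 65 for FLI1, 17 for H3K27ac and 7 for FLI1 at a repeat, and −log10 q of at least 5 gave 3 for H3K27ac, 6 for H3K9me3 and 28 for H3K27me3. FLI1 at a repeat was 7 in at least 3 of 4 lists and 0 within 100 bp. Leaving out each list in turn gave 6 to 8 genes for FLI1 at the start and 0 to 1 for H3K27ac there, the 1 being KCNE4 without replicate 1, and 10 to 14 for H3K27ac over the body. FLI1 and H3K27ac counts over the body stayed below the share of all genes under each setting run, and H3K27me3 counts above it. Alternatives chosen after seeing the data left 23 genes for FLI1 and 6 for H3K27ac over the body without regions at the starts of other genes, and 28 genes with 1 FLI1 region shared by the 4 lists.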
